A study of Homo sapiens with 647 samples.

Results

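Luminal lineage transcription factors are the DNA-binding proteins that set and hold the identity of the hormone-responsive, milk-duct-facing cells of the breast. The genes described here are FOXA1, GATA3, ELF3, SPDEF, TFAP2A, TFAP2C, GRHL2 and TRPS1, taken by name from the table of read counts, and these 8 of its 54592 genes were all found. Their messenger RNA was read by SMART-Seq2 RNA sequencing in T47D, an estrogen receptor (ER) positive luminal breast cancer cell line. All samples derived from this line, either parental or infected with a pLX307 lentivirus carrying GFP, FGFR1, FGFR2 wild type (WT), FGFR2 M538I, FGFR2 N550K, FGFR2 K660N or FGF3. FGFR1 and FGFR2 are receptor tyrosine kinases for fibroblast growth factors, and FGF3 is a secreted ligand. The labels do not say if a line was a clone or a pool, nor which promoter drove the insert. Cells grew for 48 h in 96-well plates and were then treated for 24 h. The agents, alone or combined, were DMSO (the vehicle), fulvestrant at 100 nM (an ER antagonist and degrader), palbociclib at 1 µM (a CDK4/6 inhibitor), FIIN-3 at 100 nM (an FGFR inhibitor), trametinib at 500 nM (a MEK inhibitor) and the ligand FGF2, whose dose the labels do not give.

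The study asked how FGFR activation shapes the transcriptional output of these cells under endocrine and targeted drugs. Sample numbers in the titles run through 2 times, and the runs are treated as sets: set 1 held 64 groups of line and treatment and set 2 held 48, most with 6 libraries. Set 1 held DMSO, FGF2, FIIN-3, fulvestrant and fulvestrant combinations, and set 2 held palbociclib and its combinations with the other agents, and FIIN-3 alone. The FGF3 line had no FGF2 arm, and its untreated libraries of set 2 carry the label control. Below, "control lines" are the parental and GFP lines together, and "FGFR2 lines" are the WT, M538I, N550K and K660N lines together. The labels do not say that libraries of a group came from separate cultures, so p-values measure the spread between libraries, which may be technical.

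FOXA1 and GATA3 open and mark chromatin at enhancers where the estrogen receptor binds, and GATA3 also belongs to the program that makes luminal cells from progenitors. ELF3 and SPDEF are epithelial members of the ETS family, which reads a GGAA core, and SPDEF is known from secretory differentiation. TFAP2A and TFAP2C are AP-2 factors, and TFAP2C is known to sustain ER expression in luminal cells. GRHL2 is a grainyhead factor that keeps epithelial junction genes on, and TRPS1 is an atypical GATA-family repressor that is widely used as a breast marker. Ligand-bound FGF receptors signal through RAS, RAF, MEK and ERK kinases, and ERK in turn switches on genes such as DUSP6, SPRY4 and ETV4.

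Total counts had a median of 7570052.5 in set 1 (512961 to 13012180) and 2887186 in set 2 (619509 to 4804935). FGFR1 was above every other library in 46 of 46 FGFR1-line libraries of set 1 and 36 of 36 of set 2. FGFR2 was so in all FGFR2-line libraries but 1 of set 1, and FGF3 in 33 of 33 and 32 of 32 libraries of its line. The luminal keratins were abundant in GFP cells at DMSO (mean TPM, a length-scaled level, 6299 for KRT18 and 3427 for KRT8), whereas the basal keratins KRT5 and KRT14 were at 0.05 and 0.20 TPM. In 14 libraries of set 1 and 2 of set 2, less than 5% of counts fell on MT-RNR2, a ribosomal RNA of mitochondria (1.09 to 4.43% and 1.56 to 1.99%, against 5.83 to 29.2% and 5.49 to 26.4% in the others). These libraries stand apart, 8 of the 14 were DMSO libraries, and tests whose call changed, and values that moved by over 1.5 times, without them are given both ways. Fold changes that use the DMSO libraries of the FGFR1 line are the exception, being given with all libraries only.

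The factors themselves differed in the libraries that stand apart. In the 11 groups of set 1 that held such a library beside others, TFAP2C was higher in it in 11 of 11, by a median of 2.52 on the log2 scale. GRHL2 was higher in 10 of 11 (median 1.18), FOXA1 in 10 (0.79), TRPS1 in 9 (0.78) and GATA3 in 10 (0.51). ELF3, SPDEF and TFAP2A went the other way, each being higher in 1 of 11 groups, with medians of -1.04, -0.98 and -0.34. TFAP2C values in DMSO arms therefore depend most on which libraries are kept. The differences above are on the log2(CPM + 1) scale, of counts scaled to the library total. In TPM, the GFP DMSO library that stands apart was the lowest of 6 for TRPS1 (40.4) and GATA3 (151.7). The means of the others were 63.8 and 189.6. It was the highest of 6 for TFAP2C (204.7) and GRHL2 (30.5), as in CPM. For TRPS1 and GATA3 the direction thus depended on the scale in this group.

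**Figure D1:**
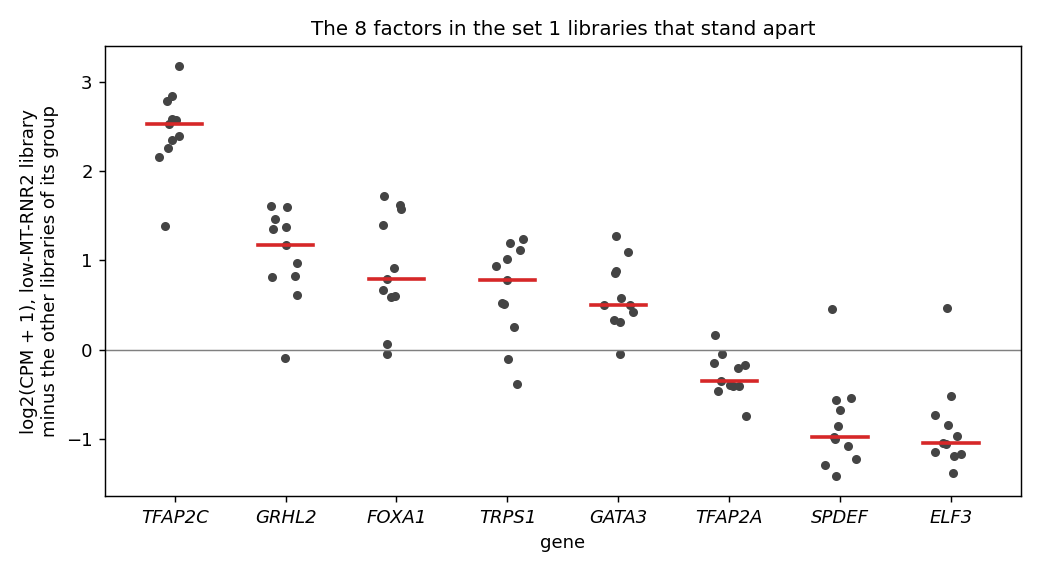
Difference in log2(CPM + 1) between the libraries that stand apart (low MT-RNR2) and the other libraries of their group (vertical axis) for each gene (horizontal axis), 1 point for each of 11 groups of set 1, with the median as a bar. TFAP2C lies above 0 in every group, and ELF3 and SPDEF lie below 0 in all but 1.

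SPDEF and GATA3 were the most abundant of these transcripts per unit of length. In GFP cells at DMSO, SPDEF was at 363.05 ± 144.7 TPM, GATA3 at 183.3 ± 32.2, TFAP2C at 76.5 ± 62.9 and TRPS1 at 59.9 ± 12.3 (mean ± SD, n = 6). GRHL2 followed at 23.8 ± 4.06, ELF3 at 20 ± 8.54, FOXA1 at 18.5 ± 5.07 and TFAP2A at 13.5 ± 4.28 TPM. The last 4 neighbours in that order overlap within 1 SD, as do TFAP2C and TRPS1. Of the 6 libraries 1 stands apart, and in the other 5 TFAP2C was at 50.8 ± 3.80, below TRPS1 at 63.8 ± 8.72, while SPDEF was at 421.6 ± 21.2 and ELF3 at 23.3 ± 3.56. SPDEF came first and GATA3 second in 81 of the 87 DMSO and FGF2 libraries of set 1. By medians, SPDEF ran from 384.3 TPM in the FGFR2 WT line to 619.5 TPM in the FGF3 line, and TFAP2A from 14.8 TPM in GFP to 23.2 TPM in FGF3.

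**Figure D2:**
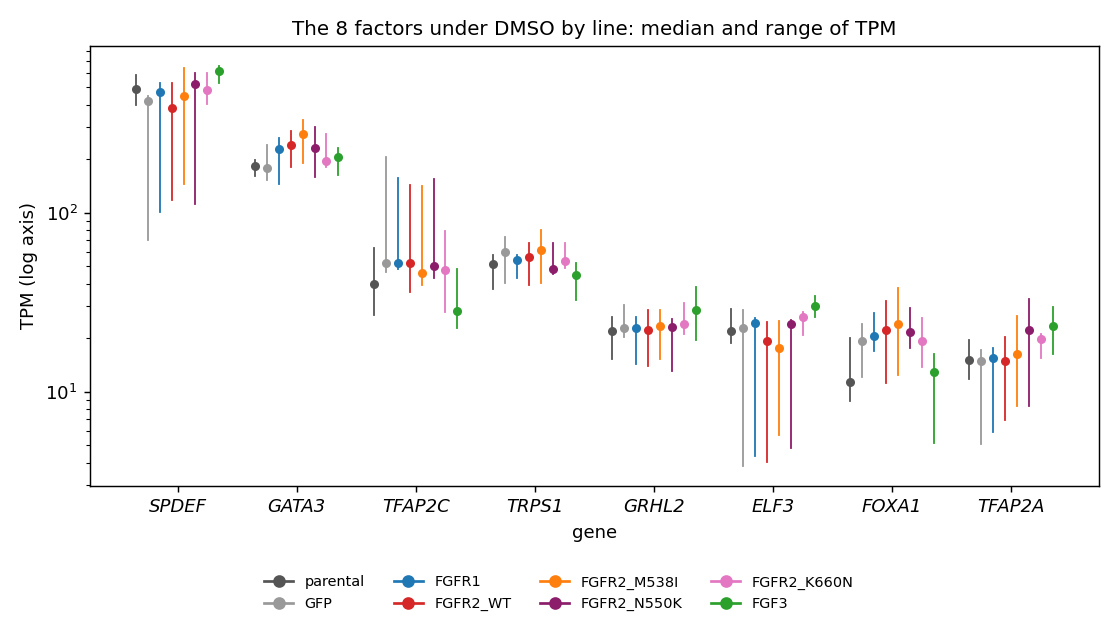
TPM (transcript level scaled for length and library, log axis) of the 8 factors in DMSO libraries of set 1 by cell line, with points at the median and lines from the lowest to the highest library. SPDEF and GATA3 sit above the other factors in every line by median, and in GFP cells ELF3 (3.85 to 28.5) and SPDEF (70.2 to 445.7) have the widest ranges on this axis.

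The 250 bases before the annotated start are shown for ELF3, SPDEF and TFAP2A, because ELF3 and TFAP2A were called most often below and SPDEF is the other ETS factor. They come from RefSeq on GRCh38.p14, 5 of the 8 genes matched the table, and for TFAP2A the more upstream of its starts is shown. Capitals mark the ETS core, GGAA or TTCC on the other strand. ELF3 lies at chr1:202010337-202010586 on the plus strand, SPDEF at chr6:34556330-34556579 and TFAP2A at chr6:10419660-10419909, both on the minus strand.
ELF3: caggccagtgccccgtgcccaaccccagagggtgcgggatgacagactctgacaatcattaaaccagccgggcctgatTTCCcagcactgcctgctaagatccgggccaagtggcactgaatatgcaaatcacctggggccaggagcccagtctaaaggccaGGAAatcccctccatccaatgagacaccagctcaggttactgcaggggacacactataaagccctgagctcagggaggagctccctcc
SPDEF: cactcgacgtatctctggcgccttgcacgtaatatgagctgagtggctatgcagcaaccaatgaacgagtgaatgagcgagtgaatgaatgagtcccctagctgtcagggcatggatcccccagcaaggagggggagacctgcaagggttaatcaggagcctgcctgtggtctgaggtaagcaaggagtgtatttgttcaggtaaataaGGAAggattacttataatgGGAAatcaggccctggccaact
TFAP2A: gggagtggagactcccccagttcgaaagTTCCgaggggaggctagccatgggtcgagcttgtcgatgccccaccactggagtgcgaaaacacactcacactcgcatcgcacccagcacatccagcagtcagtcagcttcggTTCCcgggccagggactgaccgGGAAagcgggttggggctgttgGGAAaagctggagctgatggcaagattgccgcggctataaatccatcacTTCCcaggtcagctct
The ETS core was found 2 times in the ELF3 window, 2 times in SPDEF and 5 times in TFAP2A, on either strand. It was in 92.7% of 35116 windows of this length, so its presence does not set these genes apart. The AP-1 motif TGANTCA (6.57% of windows) and the GATA motif AGATAA (9.17%) were in none of the 3 windows. GGTCA, a unit of the estrogen response element (32.6%), was found 2 times in TFAP2A and not in ELF3 or SPDEF.

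Over the treatments, ELF3 was the factor that moved most often and GRHL2 the one that did not pass the test. Each gene was tested in 49 comparisons with edgeR's quasi-likelihood test, and a gene is said to rise or fall where the Benjamini-Hochberg adjusted p over all genes tested is under 0.05. Of the 392 values, 62 passed as higher and 47 as lower, or 27.8%, against 18.7% of all genes tested in the same comparisons, where the share called ran from 0 to 57.8%. The factors were chosen with earlier results of these data known, and the difference between these shares was not tested. ELF3 passed in 29 comparisons (26 higher, 3 lower), TFAP2A in 23 (9 higher, 14 lower), TRPS1 in 20 (13 higher, 7 lower) and SPDEF in 13 (6 higher, 7 lower). GATA3 passed in 11 (2 higher, 9 lower), TFAP2C in 8 (5 higher, 3 lower) and FOXA1 in 5 (1 higher, 4 lower). GRHL2 passed in 0 with edgeR, with 3 values at an unadjusted p under 0.05 and 1 call by DESeq2. Many comparisons share libraries, which ties their values to each other.

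**Figure D3:**
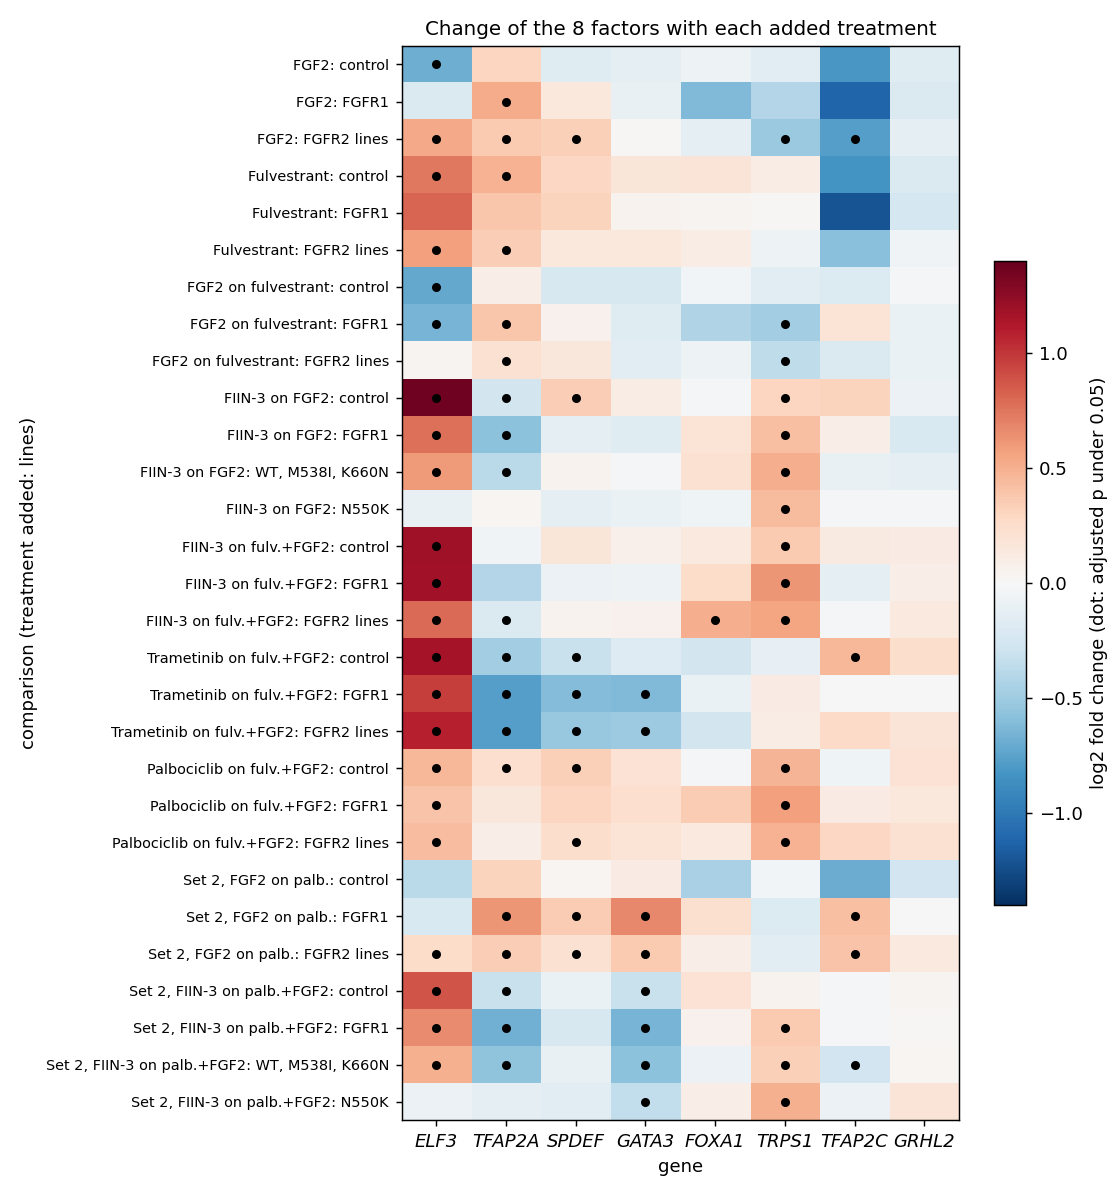
Log2 fold changes (colour) of the 8 factors (columns) in 29 comparisons (rows), with dots where the adjusted p of edgeR's quasi-likelihood test is under 0.05. ELF3 is higher in nearly every row in which FIIN-3 or trametinib was added, except in the N550K line for FIIN-3 on FGF2 bases, and the GRHL2 column holds no dot.

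Group means of ELF3 spanned 2.34 on the log2(CPM + 1) scale in set 1, the scale used for levels from here on, with CPM being counts scaled to the library total. The lowest were parental FGF2 cells at 5.42 ± 0.23 and GFP FGF2 cells at 5.56 ± 0.13, and the highest were N550K cells under fulvestrant plus FIIN-3 at 7.76 ± 0.16 and M538I cells under fulvestrant, FGF2 and trametinib at 7.76 ± 0.33 (mean ± SD). Among the first 8 groups in this order, from 7.76 down to 7.42, each lay within 1 SD of the next. In set 2 ELF3 spanned 2.56, from 5.42 in the FGF3 control group to 7.98 in N550K cells under fulvestrant, palbociclib, FGF2 and trametinib. The spans were 2.16 and 1.04 for FOXA1 in set 1 and set 2, and 2.14 and 1.33 for TFAP2C. They were 0.96 and 1.57 for GATA3, 1.27 and 1.00 for SPDEF, 1.34 and 0.93 for TRPS1 and 1.14 and 0.96 for TFAP2A. GRHL2 had the narrowest span of the 8 in both sets, at 0.65 and 0.63, as it did without the libraries that stand apart. Without the libraries that stand apart the spans of FOXA1 and TFAP2C in set 1 were 1.93 and 1.76, that of ELF3 in set 2 was 2.22, and those of GRHL2 were 0.48 and 0.58. A value per bulk library cannot tell fewer cells with a transcript from less transcript per cell.

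Without drug or ligand, the factors in the FGFR1 and FGFR2 lines did not differ from those in GFP cells past the threshold. The comparisons with GFP at DMSO called 0.00787% of genes in the FGFR1 line, 0.00808% in WT, 0.0159% in M538I, 1.6% in N550K, 1.51% in K660N and 0% in parental cells. Of the 8 factors, edgeR called 0 in each of these lines. At an unadjusted p under 0.05 there were 2 in parental, 1 in N550K and 1 in K660N, and 0 in the others, and DESeq2 called 1, in N550K. Without the libraries that stand apart, TFAP2A in N550K was called at 0.57 (adjusted p = 0.0228).

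In the FGF3 line TRPS1 was lower. The 5 FGF3 DMSO libraries were at 7.33, 7.50, 7.67, 7.67 and 7.97, and the 6 GFP libraries ran from 8.33 through a median of 8.6 to 9.03. The ranges did not overlap on the log2(CPM + 1) scale, and TRPS1 fell by 0.93 ± 0.24 (log2 fold change ± SE, adjusted p = 0.0323), a 1.91-fold lower level. This comparison called 7.18% of genes and 1 of the 8 factors. Without the GFP library that stands apart the TRPS1 difference was -0.76 (adjusted p = 0.00133), and TFAP2C was then called too, at -0.86 (adjusted p = 0.00389), against -2.23 (0.054) with it. Leaving out single libraries ended the TRPS1 call in 7 of 11 cases (each of the 5 FGF3 libraries, and GFP replicates 1 and 4), with adjusted p up to 0.0765. The FGF3 libraries were shallower, with a median total of 1854451 against 8578336.5, and their median MT-RNR2 share was 11.6% against 21.5%; their part in the result was not tested. Of the basal and mesenchymal genes 3 of 6 tested were higher and 0 lower in this line (median 1.91, against -0.11 over all genes), the basal keratins KRT5 and KRT17 by 7.34 and 6.33. Of the other luminal regulators 2 of 12 were lower (median -0.47), the hormone receptors PGR at -3.95 and ESR1 at -1.51, and of the luminal epithelial genes 0 of 17 were called (median -0.01).

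FGF2 moved ELF3 down in control lines and, over the 4 FGFR2 lines together, up. In control lines the 12 FGF2 libraries ran from 5.16 through a median of 5.54 to 5.74, and the 12 DMSO libraries from 4.79 through 6.16 to 6.46. The DMSO library at 4.79 was the GFP library that stands apart, and the other GFP libraries were at 5.92 or above. ELF3 fell by 0.68 ± 0.13 (adjusted p = 0.00135), in a comparison that called 5.96% of genes and 1 of the 8 factors. Without that library ELF3 was at -0.75 (adjusted p = 1.94e-06), and TFAP2A was then called at 0.28 (0.0388) where it had been at 0.31 (0.054).

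In the 4 FGFR2 lines the 24 FGF2 libraries ran from 5.81 through 6.48 to 7.10 for ELF3, and the 23 DMSO libraries from 4.67 through 6.01 to 6.33. The arms overlapped, and ELF3 rose by 0.53 ± 0.12 (adjusted p = 0.000361). By line, the mean difference was 1.05 in M538I, 0.95 in N550K, 0.42 in WT and -0.06 in K660N. The M538I, N550K and WT DMSO arms each hold 2 libraries that stand apart, and without them the differences were 0.76, 0.63 and 0.14. The differences between these 4 lines were not tested. The test of the difference between FGFR2 lines and control lines gave 1.22 ± 0.19 for ELF3 (adjusted p = 4.77e-05), with 1.87% of genes and 1 of the 8 factors called. With those that stand apart left out it was 1.07 (4.58e-07), and SPDEF was then called as well at 0.41 (0.0322). The difference between FGFR1 and control lines called 3.24% of genes and 0 of the factors by edgeR (1 at an unadjusted p under 0.05, 0 by DESeq2), with ELF3 at 0.50 ± 0.25 (adjusted p = 0.247). The FGFR1 and GFP DMSO arms each hold a library that stands apart, and without those 0 factors were called.

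**Figure D4:**
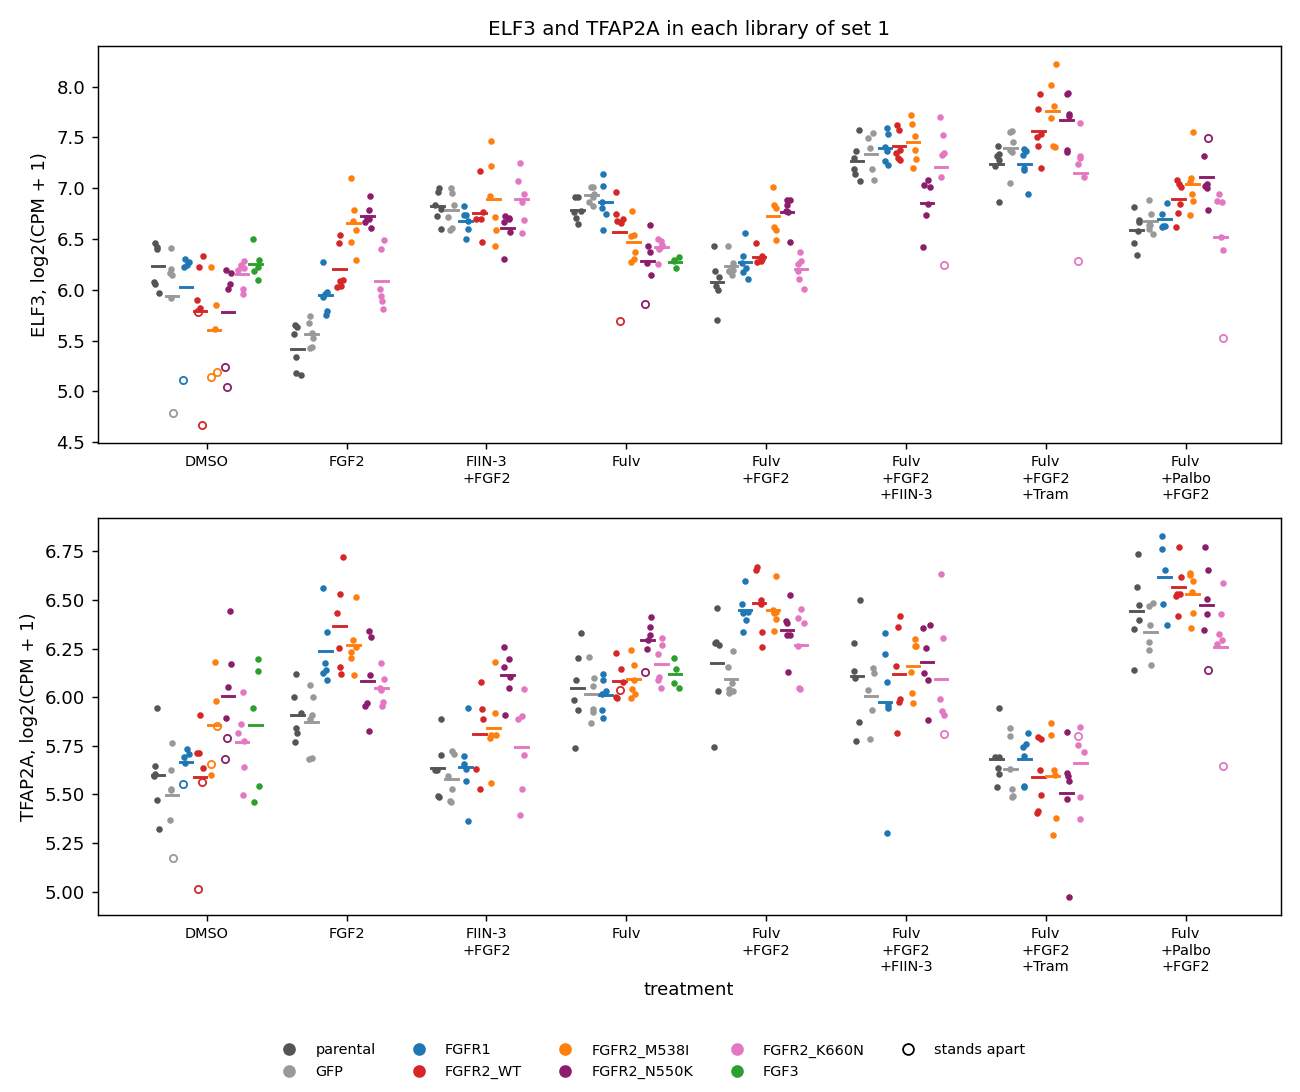
ELF3 and TFAP2A on the log2(CPM + 1) scale (vertical axis) by line and treatment in set 1, 1 point for each library, open where it stands apart, with the group mean as a bar. ELF3 lies lowest in parental and GFP cells with FGF2, between 5.16 and 5.74, and in control lines with FGF2 and FIIN-3 it lies between 6.59 and 7.0.

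Other factors moved with FGF2 in the receptor lines. The comparison in FGFR2 lines called 46.2% of genes and 5 of the 8 factors. SPDEF rose by 0.34 ± 0.09 (adjusted p = 0.00331) and TFAP2A by 0.37 ± 0.08 (0.000224), while TRPS1 fell by 0.52 ± 0.13 (0.000707). TFAP2C was at -0.78 ± 0.24 (0.00793), but 6 of the 23 DMSO libraries stand apart, and without them its sign turned, to 0.27 (0.0391). The median of the FGF2 libraries, 6.52, was above the DMSO median of 6.19 for TFAP2C, while the DMSO arm reached 9.0. Without those libraries 28.1% of genes were called, ELF3 was at 0.32 (0.00595), SPDEF at 0.18 (0.0347), TFAP2A at 0.29 (0.00312), and TRPS1 at -0.18 (0.0909) lost its call. By line the TFAP2A mean difference was then 0.63 in WT, 0.35 in M538I, 0.28 in K660N and -0.05 in N550K. In the FGFR1 line, where 31.6% of genes were called, TFAP2A was the 1 factor called. Its 6 FGF2 libraries ran from 6.09 through 6.16 to 6.56, above all 5 DMSO libraries at 5.55, 5.66, 5.69, 5.71 and 5.73, a rise of 0.52 ± 0.15 (adjusted p = 0.0212). ELF3 in the FGFR1 line was at -0.20 ± 0.20 (0.461). DMSO replicate 3 of that line stands apart, at 5.12 for ELF3 beside 6.23 and 6.27 in replicates 1 and 2. The ELF3 fold change without replicate 3 is not given here, and without it 1 factor was called too. Without DMSO replicate 1 FOXA1 was called there as well (0.0385), and without DMSO replicate 2 TFAP2C was (0.0498).

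ERK output genes rose with FGF2 in the same libraries. All gene lists were chosen with earlier results of these data known, so their counts are descriptions. Of 14 ERK output genes, 5 of 10 tested rose and 0 fell in control lines (median 0.88, against 0.00 over all genes), 13 of 13 rose in the FGFR1 line (median 2.56, against -0.01) and 12 of 14 rose in FGFR2 lines (median 1.22, against 0.00). DUSP6, the ERK phosphatase, rose by 2.22, 4.10 and 2.26 in that order, and ETV4, an ETS factor, by 3.13, 7.63 and 3.01. Among 14 other luminal regulators, 1 of 12 fell in control lines, 4 of 13 fell and 1 rose in the FGFR1 line, and 6 of 13 fell and 2 rose in FGFR2 lines, beside 5.96%, 31.6% and 46.2% of all genes called. With at most 13 genes tested, the list's share lies near that of all genes in each class. In FGFR2 lines these regulators had a median of -0.31, with the hormone receptors PGR at -1.14 and ESR1 at -0.86, and the repressor BHLHE40 higher by 1.12. Paralogs of the factors went separate ways: ELF5, the ETS factor of milk-producing cells, fell by 0.61 (adjusted p = 0.00757) in control lines, as ELF3 did, and by 0.27 (0.028) in FGFR2 lines, where ELF3 rose. GRHL1, the paralog of GRHL2, rose by 1.14 in the FGFR1 line and 0.85 in FGFR2 lines.

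Fulvestrant raised ELF3 and TFAP2A. In control lines the 12 fulvestrant libraries lay between 6.65 and 7.01 for ELF3 with a median of 6.89, above all 12 DMSO libraries, and ELF3 rose by 0.74 ± 0.13 (adjusted p = 0.000686). TFAP2A rose by 0.49 ± 0.10 (0.00402), and without the GFP library that stands apart the values were 0.65 and 0.46. The comparison called 1.52% of genes and 2 of the 8 factors, and 8 of 10 estrogen-induced genes fell (median -1.46, against 0.02 over all genes). That list was chosen with earlier results of these data known, so its fall is a description and not a separate test. In FGFR2 lines, where 2.72% of genes were called, the same 2 factors rose, ELF3 by 0.57 ± 0.11 (0.000954) and TFAP2A by 0.35 ± 0.07 (0.000934), and by 0.44 and 0.30 without the libraries that stand apart. In the FGFR1 line ELF3 was at 0.82 ± 0.24 but not past the threshold (adjusted p = 0.617), with 0.0791% of genes called by edgeR and 0 factors (3 at an unadjusted p under 0.05, 0 by DESeq2). The DMSO library of that line that stands apart was at 5.12 for ELF3, and without it 0 factors were called. In the FGF3 line 0% of genes and 0 factors were called (0 at an unadjusted p under 0.05, 0 by DESeq2), with ELF3 at -0.01 ± 0.15.

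With fulvestrant present, FGF2 again lowered ELF3 in control lines. The 12 libraries with fulvestrant and FGF2 lay between 5.70 and 6.44 with a median of 6.19, below all 12 fulvestrant libraries, a fall of 0.72 ± 0.08 (adjusted p = 4.4e-08), with 11.6% of genes and 1 factor called. In the FGFR1 line, where 26.7% were called, ELF3 fell by 0.65 ± 0.13 (0.0014), TFAP2A rose by 0.39 ± 0.11 (0.0138) and TRPS1 fell by 0.49 ± 0.14 (0.0159). There the ELF3 libraries with FGF2, 6.11 to 6.56, did not overlap those without, 6.59 to 7.14. In FGFR2 lines (36.1% called) ELF3 was at 0.03 ± 0.08 over the 4 lines, with line differences of 0.48 in N550K, 0.26 in M538I, -0.21 in K660N and -0.25 in WT. Without the libraries that stand apart, 1 each in the WT and N550K fulvestrant arms, WT was at -0.42 and N550K at 0.40. TFAP2A rose by 0.21 ± 0.05 (0.0017) and TRPS1 fell by 0.36 ± 0.10 (0.00406) in them. With the same libraries left out TRPS1 was at -0.20 (0.0107), and TFAP2C was called too, at 0.26 (0.0484). By line the TFAP2A mean difference was then 0.39 in WT, 0.36 in M538I, 0.09 in K660N and 0.02 in N550K.

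FIIN-3 added to FGF2 raised ELF3 in every line class but N550K. In control lines the 12 libraries with FIIN-3 ran from 6.59 through 6.82 to 7.0, all above the 12 FGF2 libraries, and ELF3 rose by 1.36 ± 0.09 (adjusted p = 5.59e-13), a 2.57-fold higher level. SPDEF rose by 0.34 ± 0.10 (0.00882) and TRPS1 by 0.30 ± 0.10 (0.0212), and TFAP2A fell by 0.25 ± 0.08 (0.0179), with 24.4% of genes and 4 factors called. Fewer factors were called in this comparison without the filter on low counts, and with a term for title ranges. In the FGFR1 line (31.3% called) ELF3 rose by 0.77 ± 0.12 (0.000127) and TRPS1 by 0.42 ± 0.13 (0.0172), and TFAP2A fell by 0.57 ± 0.13 (0.00297). In the WT, M538I and K660N lines together (53.4% called) ELF3 rose by 0.59 ± 0.11 (1.24e-05) and TRPS1 by 0.51 ± 0.08 (2.17e-06), and TFAP2A fell by 0.38 ± 0.08 (8.76e-05). TFAP2A in the FGFR1 line had 6 libraries with FIIN-3 between 5.36 and 5.94, all below the FGF2 libraries between 6.09 and 6.56. The MT-RNR2 share was also higher with FIIN-3 in the WT, M538I and K660N lines, with medians of 20.8% against 15.8%, and its part in the TRPS1 result was not tested.

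N550K is a mutation in the kinase domain of FGFR2. In its line, where 8.55% of genes were called, ELF3 stayed between 6.30 and 6.72 with FIIN-3 (median 6.68) and between 6.61 and 6.92 without (median 6.70), at -0.11 ± 0.12 (adjusted p = 0.617). TRPS1 was the 1 factor called, at 0.44 ± 0.13 (0.0448), and the call was lost without the filter on low counts (0.073) and with a term for title ranges (0.159). The difference between N550K and the other lines was not tested. ERK output genes fell in N550K cells too, 11 of 14 with a median of -1.47 (against -0.03 over all genes), beside 13 of 14 with a median of -2.38 (against 0.01) in the other FGFR2 lines. DUSP6 fell by 1.56 in N550K and by 4.65 in the others. ELF5, in contrast to ELF3, rose in all 4 classes, by 1.05 in control lines, 0.92 in FGFR1, 1.28 in WT, M538I and K660N and 0.91 in N550K. Of the other luminal regulators, 6 of 13 rose and 0 fell in WT, M538I and K660N (median 0.31), among them PGR by 2.27, ESR1 by 1.45 and MYB by 1.26, and 3 of 12 rose in N550K (median 0.04), beside 53.4% and 8.55% of all genes called.

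The same additions were made on top of fulvestrant and FGF2. FIIN-3 raised ELF3 by 1.18 ± 0.08 in control lines (adjusted p = 1.41e-12, 24.3% of genes called), 1.17 ± 0.13 in FGFR1 (1.28e-06, 29.7%) and 0.80 ± 0.09 in FGFR2 lines (6.43e-11, 57.8%). By line the FGFR2 means differed by 1.09 in WT, 1.00 in K660N, 0.73 in M538I and 0.09 in N550K, and K660N was at 1.20 without its 1 FIIN-3 library that stands apart. TRPS1 rose in the same 3 comparisons, by 0.36 ± 0.12 (0.0203), 0.61 ± 0.12 (0.000829) and 0.55 ± 0.07 (2.95e-10). FOXA1 rose in FGFR2 lines by 0.51 ± 0.14 (0.00172), and by 0.42 (0.00255) without that library, with K660N going from 0.86 to 0.63. TFAP2A fell there by 0.20 ± 0.06 (0.00589), and TFAP2C was called at -0.19 (0.0489) once that library was left out. For ELF3 the arms with and without FIIN-3 did not overlap in control lines (7.08 to 7.57 against 5.70 to 6.44) or in FGFR1 (7.23 to 7.60 against 6.11 to 6.56), and overlapped in FGFR2 lines.

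Trametinib, which blocks MEK below the receptor, raised ELF3 in all 3 classes on fulvestrant and FGF2 and lowered SPDEF and TFAP2A in all 3. ELF3 rose by 1.17 ± 0.08 in control lines (adjusted p = 9.84e-13, 27.3% of genes called), 0.97 ± 0.10 in FGFR1 (1.78e-06, 11.3%) and 1.09 ± 0.07 in FGFR2 lines (1.85e-17, 28.1%). In N550K cells ELF3 had a mean of 7.67 ± 0.26 with trametinib and 6.77 ± 0.15 without (SD, n = 6), unlike its FIIN-3 mean of 6.85 ± 0.25. TFAP2A in FGFR2 lines ran from 4.97 through 5.61 to 5.87 with trametinib and from 6.04 through 6.40 to 6.67 without. These 48 libraries did not overlap between arms, and TFAP2A fell by 0.77 ± 0.07 (7.94e-14), beside falls of 0.49 ± 0.08 (1.65e-05) in control lines and 0.77 ± 0.09 (7.86e-06) in FGFR1. SPDEF fell by 0.31 ± 0.08 (0.00287), 0.61 ± 0.09 (0.000137) and 0.53 ± 0.07 (8.5e-09) in control, FGFR1 and FGFR2 lines. GATA3 fell by 0.62 ± 0.14 in FGFR1 (0.00764) and 0.51 ± 0.12 in FGFR2 lines (0.000874), and TFAP2C rose by 0.46 ± 0.13 in control lines (0.00964). FOXA1 in FGFR2 lines was called at -0.38 (0.00696) once the 1 K660N library that stands apart was left out. ERK output genes fell in 7 of 9, 10 of 10 and 14 of 14 tested, with medians of -1.36, -2.98 and -2.69 (against -0.02, 0.01 and 0.01 over all genes).

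Palbociclib on fulvestrant and FGF2 raised ELF3 and TRPS1 in all 3 classes, by less than trametinib did for ELF3. ELF3 rose by 0.46 ± 0.08 in control lines (adjusted p = 4.96e-05, 25.3% of genes called), 0.40 ± 0.12 in FGFR1 (0.0351, 12.7%) and 0.43 ± 0.07 in FGFR2 lines (5.21e-06, 35%). The 5 FGFR1 libraries with palbociclib were at 6.62, 6.62, 6.63, 6.75 and 6.85, just above the 6 without, whose highest was 6.56, and the ELF3 call ended in 8 of 11 cases when a single library was left out (adjusted p up to 0.0987). TRPS1 rose by 0.48 ± 0.12 (0.00243), 0.58 ± 0.15 (0.0145) and 0.49 ± 0.07 (1.33e-07), and the FGFR1 value was at 0.0502 without replicate 4 of the palbociclib arm. SPDEF rose by 0.33 ± 0.09 in control lines (0.00513) and 0.25 ± 0.07 in FGFR2 lines (0.00555), and TFAP2A by 0.24 ± 0.08 in control lines (0.0292). The sizes of the palbociclib and trametinib changes were not tested against each other, and both share the libraries with fulvestrant and FGF2.

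In the FGF3 line of set 1, which makes its own ligand, ELF3 rose with each FIIN-3 and trametinib arm. FIIN-3 against DMSO gave 7.14 to 7.65 in 6 libraries with a median of 7.39, above the 5 DMSO libraries between 6.09 and 6.51, a rise of 1.09 ± 0.15 (adjusted p = 4.93e-05, 10.4% of genes and 1 factor called). On fulvestrant, FIIN-3 raised it by 1.42 ± 0.13 (7.79e-08, 13.1% and 1 factor) and trametinib by 1.17 ± 0.13 (6.93e-06, 7.43% and 3 factors). Trametinib lowered SPDEF by 0.54 ± 0.12 (0.00914) and TFAP2A by 0.47 ± 0.13 (0.0284). The 4 SPDEF libraries on fulvestrant alone were at 9.05, 9.14, 9.21 and 9.32 and those with trametinib between 8.4 and 9.03. The TFAP2A libraries on fulvestrant alone were at 6.05, 6.07, 6.15 and 6.20, also above those with trametinib (5.51 to 5.81), but the TFAP2A call ended in 7 of 10 cases when a single library was left out (adjusted p up to 0.0791). Without replicate 4 on fulvestrant alone, GATA3 was called with FIIN-3 (0.0322), trametinib (0.0366) and palbociclib (0.0228). Palbociclib on fulvestrant called 7.03% of genes and 0 factors by edgeR (4 at an unadjusted p under 0.05, 0 by DESeq2), with ELF3 at 0.34 ± 0.15 (0.199).

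Without FGF2, N550K cells with FIIN-3 differed from those at DMSO in 4 of the factors, in arms whose title ranges do not overlap. ELF3 rose by 1.55 ± 0.25 (adjusted p = 0.000807), from 5.04 to 6.19 at DMSO (median 6.03) to 6.96 to 7.82 with FIIN-3 (median 7.19), in a comparison that called 25.7% of genes and 4 factors. FOXA1 fell by 0.97 ± 0.22 (0.00745), TFAP2A by 0.50 ± 0.17 (0.0431) and TFAP2C by 1.89 ± 0.53 (0.0195). Without the 2 DMSO libraries that stand apart, ELF3 was at 1.23, FOXA1 at -0.68, TFAP2A at -0.64 and TFAP2C at -0.42, GATA3 at -0.38 and SPDEF at 0.40, all called. The drug and the title range cannot be told apart in this comparison.

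Set 2 repeated part of the design with palbociclib as the base. FGF2 on palbociclib raised SPDEF, TFAP2A, TFAP2C and GATA3 in receptor lines. In FGFR1 (24.8% of genes and 4 factors called) GATA3 rose by 0.67 ± 0.18 (adjusted p = 0.00891), TFAP2A by 0.62 ± 0.13 (0.00108), TFAP2C by 0.42 ± 0.14 (0.0348) and SPDEF by 0.35 ± 0.08 (0.0015). SPDEF ran from 8.84 to 9.08 with FGF2 and from 8.48 to 8.77 without, and TFAP2A from 5.91 to 6.56 and from 5.18 to 5.78, with no overlap in either. In FGFR2 lines (38% and 5 factors) ELF3 rose by 0.26 ± 0.06 (0.000287), GATA3 by 0.36 ± 0.09 (0.0016), SPDEF by 0.21 ± 0.05 (0.000991), TFAP2A by 0.34 ± 0.08 (0.000224) and TFAP2C by 0.40 ± 0.09 (0.000126). In control lines 1.08% of genes and 0 factors were called by edgeR (3 at an unadjusted p under 0.05, 0 by DESeq2). ELF3 was at -0.38 ± 0.14 (0.29), and without the parental palbociclib library that stands apart it was called at -0.46 (0.000221).

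FIIN-3 on palbociclib and FGF2 raised ELF3 and lowered TFAP2A outside N550K, and lowered GATA3 in all 4 classes. ELF3 rose by 0.88 ± 0.07 in control lines (adjusted p = 1.04e-13, 9.21% of genes and 3 factors called), 0.66 ± 0.13 in FGFR1 (0.00134, 16.3% and 4) and 0.49 ± 0.07 in WT, M538I and K660N (6.14e-08, 49.6% and 5). In control lines ELF3 lay between 6.80 and 7.16 with FIIN-3 and between 5.98 and 6.25 without. GATA3 fell by 0.31 ± 0.08 (0.00822), 0.65 ± 0.14 (0.00378) and 0.57 ± 0.08 (6.09e-09) in that order, and TFAP2A by 0.31 ± 0.10 (0.0469), 0.67 ± 0.17 (0.00939) and 0.56 ± 0.08 (4.99e-08). In FGFR1 the GATA3 libraries did not overlap, with 8.71 to 9.16 with FIIN-3 and 9.36 to 9.96 without. TRPS1 rose by 0.37 ± 0.12 in FGFR1 (0.0416) and 0.33 ± 0.06 in WT, M538I and K660N (9.76e-06), and TFAP2C fell by 0.26 ± 0.08 in the latter (0.00506). In N550K (20.9% and 2 factors) ELF3 was at -0.08 ± 0.10 (0.61), GATA3 fell by 0.35 ± 0.11 (0.0259) and TRPS1 rose by 0.49 ± 0.09 (0.000193). The 5 N550K libraries without FIIN-3 were at 9.18, 9.34, 9.41, 9.45 and 9.45 for GATA3 and at 7.96, 8.12, 8.33, 8.33 and 8.49 for TRPS1, and both overlapped the 6 with FIIN-3 (8.51 to 9.39 and 8.46 to 8.98). The GATA3 call in N550K ended in 5 of 11 cases when a single library was left out (adjusted p up to 0.0798).

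Trametinib and FIIN-3 were set against each other on fulvestrant, palbociclib and FGF2. GATA3, SPDEF, FOXA1 and TRPS1 were lower with trametinib in all 3 classes. In FGFR2 lines (54.7% of genes and 7 factors called) GATA3 was lower by 0.60 ± 0.08 (adjusted p = 7.71e-09), SPDEF by 0.53 ± 0.05 (2.54e-14), TRPS1 by 0.47 ± 0.07 (8.99e-08), FOXA1 by 0.31 ± 0.10 (0.00888) and TFAP2A by 0.31 ± 0.07 (0.000238). ELF3 was higher by 0.33 ± 0.05 (1.31e-07) and TFAP2C by 0.21 ± 0.08 (0.0184). SPDEF in these lines ran from 7.94 through 8.37 to 8.69 with trametinib and from 8.48 through 8.88 to 9.15 with FIIN-3, a small overlap of both ranges. In control lines (38.6% and 6 factors) GATA3 was lower by 0.34 ± 0.10 (0.00504), SPDEF by 0.37 ± 0.07 (7.28e-05), FOXA1 by 0.28 ± 0.09 (0.0109), TRPS1 by 0.23 ± 0.08 (0.0255) and TFAP2A by 0.36 ± 0.09 (0.00141), and TFAP2C was higher by 0.37 ± 0.11 (0.00766). In FGFR1 (25.1% and 4 factors) FOXA1 was lower by 0.55 ± 0.13 (0.00203), GATA3 by 0.60 ± 0.11 (8.52e-05), SPDEF by 0.35 ± 0.09 (0.00458) and TRPS1 by 0.32 ± 0.09 (0.00727). ELF3 did not differ past the threshold between both inhibitors in control lines (0.11 ± 0.07) or FGFR1 (-0.05 ± 0.10).

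**Figure D5:**
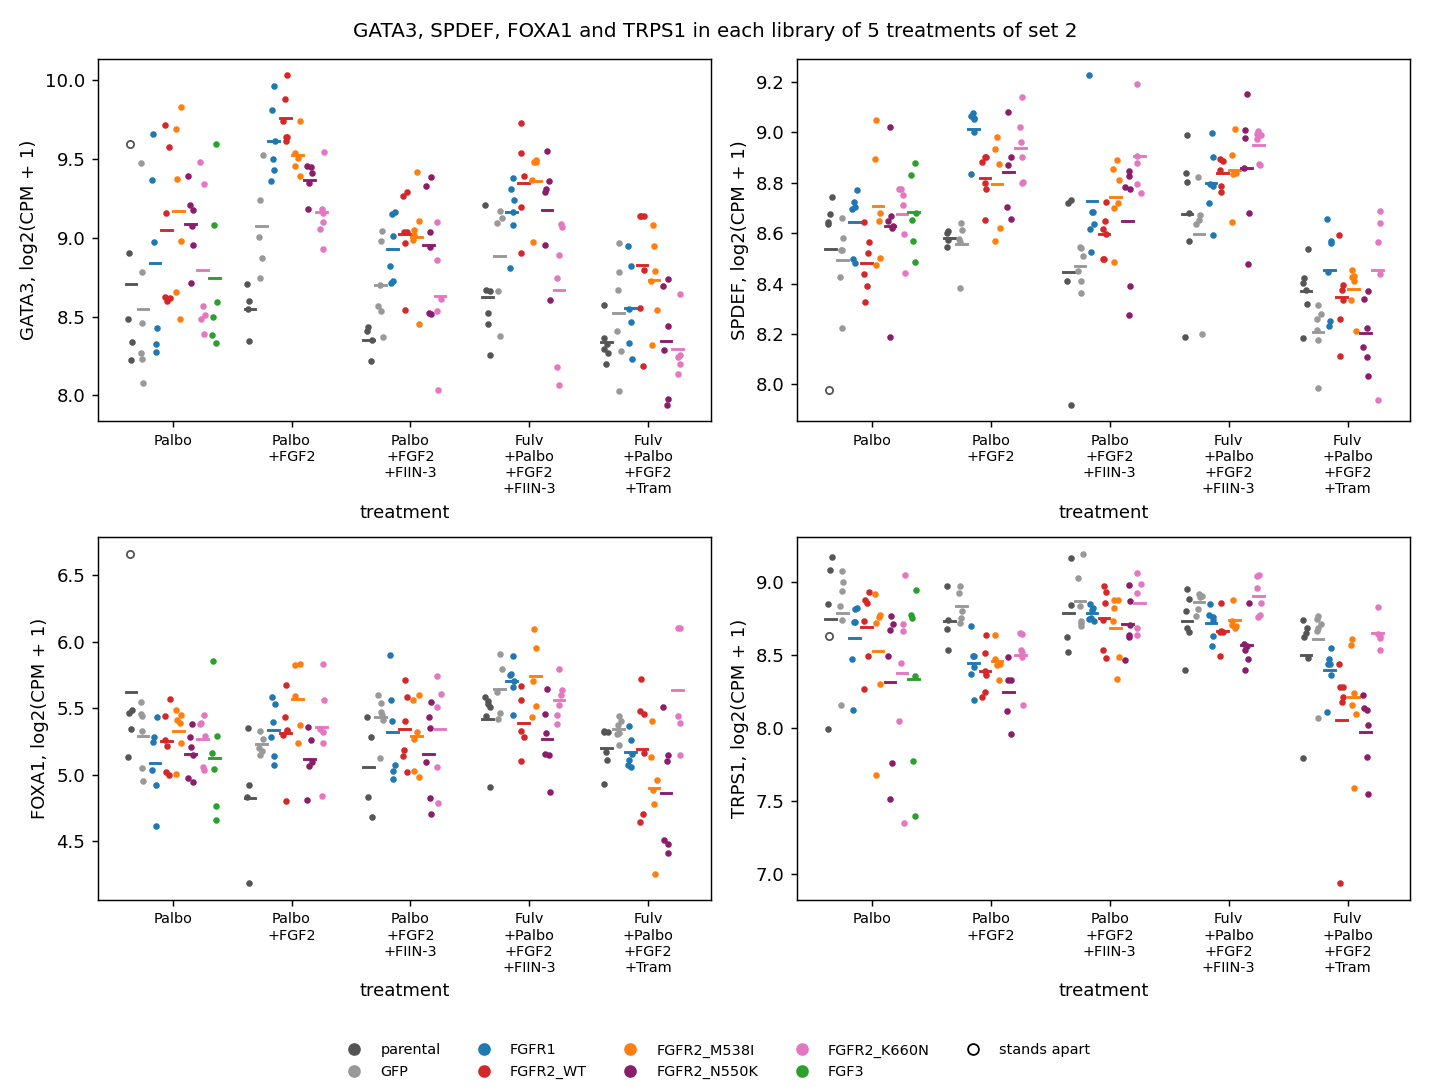
GATA3, SPDEF, FOXA1 and TRPS1 on the log2(CPM + 1) scale (vertical axis) in 5 treatments of set 2, 1 point for each library, by line. GATA3 and SPDEF lie lower in the trametinib arm than in the FIIN-3 arm on the same base, as in FGFR2 lines, where SPDEF had medians of 8.37 and 8.88.

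In the FGF3 line of set 2, FIIN-3 against the untreated control gave ELF3 values of 7.17, 7.27, 7.28, 7.34 and 7.35 in 5 libraries. The 6 control libraries were at 3.74, 5.53, 5.70, 5.84, 5.84 and 5.89, the first being a library that stands apart. ELF3 rose by 1.68 ± 0.23 (adjusted p = 0.000314, 6.72% of genes and 1 factor called), and by 1.53 without that library. Palbociclib called 6.54% of genes and 0 factors by edgeR (1 at an unadjusted p under 0.05, 0 by DESeq2). Without the same library ELF3 was called at 0.39 and GATA3 at 0.70.

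Across the groups, few of these factors rose and fell together in both sets. Over the 64 group means of set 1 and the 48 of set 2, Spearman's rho was 0.78 and 0.30 for FOXA1 with GATA3, 0.58 and 0.57 for SPDEF with TFAP2A, and 0.30 and 0.63 for GATA3 with SPDEF. It was 0.58 and 0.31 for GATA3 with TFAP2A, 0.57 and 0.17 for FOXA1 with TFAP2C, and 0.55 and 0.46 for FOXA1 with TRPS1. The group means include the libraries that stand apart, and values for pairs without them are not given here. Groups of a set share base treatments, depth and line, so these are descriptions. Among 8292 genes with a mean of at least 3 on the log2(CPM + 1) scale in both sets, the most like ELF3 in set 1 were SERTAD3 (rho 0.87, and 0.80 in set 2), ZDHHC7 (0.85 and 0.76) and DCAF4 (0.84 and 0.61). CCNI (0.86 and 0.90), XBP1 (0.86 and 0.92) and SURF1 (0.85 and 0.89) were the most like GATA3, with similar values in both sets. For FOXA1 the genes found in set 1, ZNF12 (0.92), NORAD (0.92) and MT-TS1 (0.89), were at 0.40, 0.59 and 0.41 in set 2, and for TFAP2C LLPH went from 0.89 to 0.54. TRPS1 was most like GOLGB1 (0.88 and 0.74), TFAP2A most like GALNT10 (0.83 and 0.73), SPDEF most like TMEM184A (0.79 and 0.69) and GRHL2 most like RREB1 (0.63 and 0.41). Without the libraries that stand apart, RREB1 was at 0.52 in set 1, below AP1G1 at 0.67. Among the 3 genes found for each factor, the first then also changed for ELF3, GATA3, TFAP2A and TRPS1. It became ZDHHC7, XBP1, LIMCH1 and SYNJ2BP in that order. TRPS1 also went with the MT-RNR2 share over single libraries, with rho of 0.364 over the libraries of set 1 and 0.570 over those of set 2, and its part in the TRPS1 changes was not tested. TFAP2C was at -0.357 in set 1 and 0.078 in set 2, and the other factors lay between -0.251 and 0.262. The libraries that stand apart, with the lowest share, went against the rho of TRPS1. On the log2(CPM + 1) scale TRPS1 was higher in them in 9 of 11 groups of set 1. In TPM it was lower in the GFP DMSO library that stands apart than in the other GFP DMSO libraries.

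The library kit does not mark strand, and genes on the opposite strand overlap some of these factors in GENCODE annotation. TTC6 overlaps FOXA1, GATA3-AS1 overlaps GATA3, ELF3-AS1 overlaps ELF3 and TFAP2A-AS1 overlaps TFAP2A, and all have rows of their own in the table. Reads in the shared stretches cannot be told apart by strand.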

How the data were processed

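Per the labels' protocols, RNA from cell lysates in plates was made into SMART-Seq2 libraries, and the submitters' processing notes name STAR and hg19. Versions, the counting program and its annotation are not given there. The authors deposited a table of read counts per gene in all libraries and a table of values on the log2(TPM + 1) scale. The second was planned as plain TPM. Its values were taken back to TPM, whose sum was 1e+06 per library. The order of genes by TPM rests on 87 columns, and 560 were not used.

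From the deposited counts, TMM-scaled log2(CPM + 1) levels (an offset of 1) were computed within each set. Comparisons were fitted on the libraries they compare, with the quasi-likelihood functions of edgeR 4.0.16 in R 4.3.3 (glmQLFit, glmQLFTest) after filterByExpr at a minimum count of 10, with line as an additive factor where lines were pooled and an interaction term for differences between line classes. Adjusted p is Benjamini-Hochberg over all genes tested, and the threshold is 0.05. SEs were derived from the fold change and the F statistic. The fit was tested on simulated counts for 3 comparisons. Promoter windows came from RefSeq on GRCh38.p14, and overlapping genes from GENCODE on GRCh38, not the build of the counts.

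Alternatives were DESeq2 1.42.0 (its size factors in the same fit, and its Wald test), no filter, a block for pairs of neighbouring title numbers, a term for ranges of 96 title numbers, removal of the libraries that stand apart, leaving out each library where an arm had 5 or fewer, and levels on the log2(TPM + 1) scale. The members and the gene lists were chosen with earlier results of these data known. The text names the 8 factors in all comparisons, from each other list up to 4 genes with the largest change among those called, DUSP6 and PGR, and for each factor up to 3 genes with the highest rho over set 1. Not every gene this rule gives is reported here.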

Additional observations from a re-analysis of the deposited data

Results flagged for a closer look

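In 15 of the combinations of a gene and a group of 4 to 10 libraries examined (14.2%), 1 library lay far from the others by Dixon's criterion, and in 9 it was a library that stands apart. A rate of 1 in 20 groups would give about 5.3 here. The groups were picked in part by called comparisons and by highest and lowest means, and they share libraries. So 5.3 is not the number that chance would give. The GFP DMSO library that stands apart was the lowest of 6 for ELF3 (4.79) and SPDEF (7.30) and the highest for GRHL2 (7.55) and TFAP2C (9.49), on the log2(CPM + 1) scale. The FGF3 control library of set 2 that stands apart was the lowest for ELF3 (3.74), GRHL2 (4.07) and SPDEF (5.49). In K660N cells under fulvestrant, FGF2 and trametinib, the library that stands apart was the highest for GRHL2 (7.43) and the lowest for SPDEF (7.25).

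The other 6 were not libraries that stand apart. FOXA1 was lowest at 3.21 in an FGF3 DMSO library, the others being at 4.38 to 4.83, and at 4.16 in an N550K FIIN-3 library of set 1. GATA3 was highest at 8.41 in FGFR1 cells under fulvestrant, FGF2 and trametinib, and TRPS1 at 9.0 in FGFR1 cells under fulvestrant, FGF2 and FIIN-3. In FGFR1 cells under palbociclib and FGF2, SPDEF was lowest at 8.84 and TFAP2C highest at 7.36. A tested difference between line classes was that of ELF3 with FGF2, where the change in FGFR2 lines exceeded that in control lines by 1.22 on the log2 scale.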

How the results depend on the processing

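Of the called values, 0 were lost with DESeq2 size factors, 1 with the DESeq2 Wald test and 17 without the filter on low counts. With the range term 46 of 54 held (7 lost, 1 reversed) and without the libraries that stand apart 29 of 31 (1 lost, 1 reversed). Leaving out single libraries kept a call in 100 cases and lost it in 28. TFAP2C with FGF2 in FGFR2 lines reversed, to 0.27 without the libraries that stand apart and 0.35 with the range term; the cause was not tested. The title numbers did not meet the criterion for pairs, a correlation of deviations over 0.1 in every pair: same-numbered libraries had medians of 0.172 in set 1 and 0.0496 in set 2 (lowest -0.851 and -0.546, 55.9% and 34.2% over 0.1), against -0.0732 and -0.0231 (35% and 15.2%) for other numbers. With a replicate block for the pairs 2 calls were lost, TFAP2C with FGF2 in FGFR2 lines (-0.36, adjusted p = 0.102) and TFAP2A with FIIN-3 on palbociclib and FGF2 in control lines (adjusted p = 0.0501).

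Where the number of factors called moved by more than 1.5 times, the cause was not tested. With FGF2 in control lines it went from 1 to 2 under size factors, the Wald test, no filter, the block and without the libraries that stand apart. Without the filter it went from 2 to 1 for FGF2 on fulvestrant and for fulvestrant in FGFR2 lines and for palbociclib on fulvestrant and FGF2 in FGFR1, from 4 to 2 for FIIN-3 on FGF2 in control lines, from 1 to 0 in N550K, from 1 to 3 in FGF3 against GFP, and from 0 to 1 for fulvestrant in FGFR1, K660N and parental against GFP, and FGF2 on palbociclib in control lines. With the range term it went from 1 to 4 for FGF2 in FGFR1, from 3 to 5 for FIIN-3 on FGF2 in WT, M538I and K660N, from 4 to 2 in control lines and from 1 to 0 in N550K, from 2 to 4 and 2 to 5 for FIIN-3 on fulvestrant and FGF2 in FGFR1 and control lines, and from 3 to 5 for palbociclib there in FGFR2 lines. With the Wald test it went from 1 to 2 for FGF2 on fulvestrant in control lines and FIIN-3 on fulvestrant in FGF3, from 0 to 1 in N550K against GFP and from 2 to 1 for FIIN-3 on palbociclib and FGF2 in N550K. With the block it went from 1 to 2 for FGF2 on fulvestrant in control lines and FGF3 against GFP, from 1 to 4 for FIIN-3 and from 0 to 1 for palbociclib on fulvestrant in FGF3. Without the libraries that stand apart it went from 1 to 2 in FGF3 and from 0 to 1 in N550K against GFP, from 0 to 1 for FGF2 on palbociclib in control lines and from 0 to 2 for palbociclib in FGF3. The FGF2 difference between FGFR2 and control lines went from 1 to 2 under the Wald test, the block, the range term and without those libraries.

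Leaving out single libraries gave 1 to 2 factors for FGF2 in FGFR1, 1 to 2 for FIIN-3 on fulvestrant in FGF3, 0 to 2 for palbociclib on fulvestrant and FGF2 in FGFR1, 0 to 1 for palbociclib on fulvestrant in FGF3, 0 to 2 in FGF3 against GFP and 1 to 2 for FIIN-3 on palbociclib and FGF2 in N550K. The range of the group means went from 0.68 to 1.01 for SPDEF, 0.87 to 1.17 for TFAP2A and 1.10 to 0.55 for TRPS1 when the log2(TPM + 1) scale, run for the 15 DMSO and FGF2 groups of set 1, replaced log2(CPM + 1). On that scale GATA3 means were higher with FGF2 than at DMSO in every line that had both, as 8.15 ± 0.50 against 7.74 ± 0.35 in FGFR1 (SD). TRPS1 means with FGF2 and at DMSO were 5.77 and 5.78 in WT, 5.87 and 5.84 in K660N, 5.59 and 5.68 in N550K and 5.62 and 5.97 in M538I. These differences were not tested. For FIIN-3 against DMSO in N550K the range term could not be fitted.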
